A study of Mus musculus with 8 samples.

Results

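Rpl7, Rpl31, Rpl37a and Eef1b2 are 4 genes of the protein synthesis machinery, and their transcripts were followed across single cells of mouse stomach glands. They were chosen by name, as 4 of the 779 genes of the count table. Rpl7, Rpl31 and Rpl37a encode proteins of the large ribosomal subunit. Eef1b2 encodes the exchange factor that recharges the elongation factor eEF1A with GTP. All cells had 1 genotype, Atp4bCre; Rosa26NICD; Arid1a flox/flox, and came from gastric glands at 23 weeks of age. The Cre driver is the promoter of Atp4b, a proton pump subunit gene of acid-secreting parietal cells, and the enzyme acts on a Rosa26 allele of the Notch intracellular domain and on floxed Arid1a, a subunit gene of a chromatin remodelling complex. The labels list 8 samples of this genotype, each a numbered stomach gland of a mouse, and do not say how many mice were used. The cells were sorted for high EPCAM and low Sytox Blue (living epithelial cells) and run on the 10x platform. The barcodes carry no sample name, so all cells form 1 pooled sample, no condition was compared, and every interval below covers counting error only.

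Nearly all ribosomal proteins enter the ribosome as single copies, and their messenger RNAs are among the most abundant of any growing cell. In mammals the messages of ribosomal proteins and of elongation factors, together with several small nucleolar RNA host transcripts, begin with a short run of pyrimidines, the 5′ terminal oligopyrimidine motif. Through this motif their translation and stability respond together to the growth kinase mTORC1 and the binding protein LARP1. Glands of the stomach renew from dividing progenitors, which need many ribosomes, into cells that make acid, mucus or enzymes.

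The table held 1460 barcodes with 1460 distinct names, of which 1388 had 100 or more unique molecular identifiers (UMIs, one per captured RNA molecule). These kept 439743 UMIs, with 100 to 1082 per barcode and a median of 286. Of the 779 gene names, 711 matched a GENCODE gene on chromosome 1, all below position 89933290 of GRCm38. The other names were not located, and genes elsewhere were not analysed here. Totals and shares are of the UMIs of this table and not of all RNA of a cell. Most marker genes of other cell types were scarce. The T cell genes Cd28, Ctla4, Icos, Zap70 and Stat4 had 2 to 13 UMIs each, the fibroblast genes Col3a1 and Col5a2 had 1 each, and the smooth muscle gene Des had 1. The less specific members of these lists had more, with 400 for Il18r1, 42 for Fzd7 and 32 for Tns1. Epcam and Atp4b lie elsewhere in the genome, so the labelled tissue and the sort were not checked by them.

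The 4 genes lie apart on chromosome 1 of GRCm38. Rpl7 (ENSMUSG00000043716) spans chr1:16101295-16104662 on the minus strand. Rpl31 (ENSMUSG00000073702) spans chr1:39367842-39371911, Eef1b2 (ENSMUSG00000025967) chr1:63176825-63180486 and Rpl37a (ENSMUSG00000046330) chr1:72711290-72713813, all on the plus strand. Promoter windows from RefSeq (GRCm38.p6) hold 140 bases before and 30 bases after the start annotated in that source. They were matched for Rpl31, Rpl37a and Eef1b2 and are shown with a short word that all 3 hold near that start. The RefSeq start of Rpl37a is not the gene start given above. Its window ends at 72711289, before that gene start at 72711290, so both of its marked words lie upstream of it. The promoter of Rpl7 was not analysed here. Capitals mark matches on either strand to CGGAAGT, the core that factors of the ETS family bind.
Rpl31, chr1:39367711-39367880, plus strand: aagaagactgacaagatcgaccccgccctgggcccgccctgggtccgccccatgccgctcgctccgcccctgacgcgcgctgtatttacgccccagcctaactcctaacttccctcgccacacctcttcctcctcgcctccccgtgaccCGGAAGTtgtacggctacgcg
Rpl37a, chr1:72711120-72711289, plus strand: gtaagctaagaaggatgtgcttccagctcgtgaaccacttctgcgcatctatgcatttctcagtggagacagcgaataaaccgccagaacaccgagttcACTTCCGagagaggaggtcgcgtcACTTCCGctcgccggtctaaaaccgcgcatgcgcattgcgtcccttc
Eef1b2, chr1:63176691-63176860, plus strand: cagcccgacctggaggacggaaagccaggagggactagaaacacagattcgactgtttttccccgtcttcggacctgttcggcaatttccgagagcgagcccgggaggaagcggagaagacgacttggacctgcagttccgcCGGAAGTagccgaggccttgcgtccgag
CGGAAGT occurred in all 3 windows, in Rpl37a at 2 places, and in 5.17% of 32851 mouse windows of this length. Among 180 other genes of the table with 50 or more UMIs and a window, 21 held it (11.7%). The word was chosen after these windows had been read, and a match is a description of letters and not a site in use.

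Transcripts of the 4 genes made up 44.8% of all UMIs of the table (95% interval 44.7 to 45.0, 197085 UMIs). Rpl37a held 19.4% (19.3 to 19.5), Rpl7 11.6% (11.5 to 11.7), Rpl31 9.33% (9.24 to 9.41) and Eef1b2 4.54% (4.48 to 4.60). Per kilobase of the annotated coding transcript the levels were 347344 CPM (counts-per-million of all UMIs) for Rpl37a, 99472 for Rpl7, 88918 for Rpl31 and 66672 for Eef1b2. Rpl37a led on this scale too. The order of the others on it depended on the transcript taken, because Rpl31 has coding transcripts of 356 to 1049 nucleotides and its level per kilobase would be 262008 CPM with the shortest. Each UMI stands for 1 molecule whatever its length, and the share of UMIs is the scale used from here on.

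Near-identical copies limit how completely these counts can be read. Annotated pseudogenes that matched with at least 90% identity over 70% of the shorter sequence numbered 26 for Rpl31, 11 for Rpl7, 10 for Rpl37a and 1 for Eef1b2. The closest copy of Rpl31 was 100% identical over the match, and 10 of its copies reached 98%. How reads that fit several places were counted is not given in the sources used here, so UMIs of these genes may have been lost or moved, most of all for Rpl31.

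All 4 transcripts were found in nearly every barcode. Rpl7, Rpl31 and Rpl37a had a UMI in all 1388 barcodes, and Eef1b2 in 1384. A barcode held a median of 57 Rpl37a UMIs (5 to 203), 34 of Rpl7 (2 to 129), 27 of Rpl31 (2 to 96) and 13 of Eef1b2 (0 to 56). Free RNA in the droplets adds abundant transcripts of this kind to every barcode, and its part in these counts was not tested.

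The share of a barcode's UMIs in this table that came from the 4 genes together ran from 11% to 67.6%, with a median of 45.3%. The middle 90% of barcodes lay between 31.9% and 57.9%. Rpl37a ranged from 3.72% to 45.2% (median 19.6%), Rpl7 from 1.52% to 22.7% (11.5%), Rpl31 from 1.90% to 17.8% (9.26%) and Eef1b2 from 0% to 14.5% (4.44%). In 387 barcodes (27.9%) the 4 genes supplied at least 50% of the UMIs, and in 45 under 30%. These ranges include counting error, which is large where a barcode has few UMIs.

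**Figure D1:**
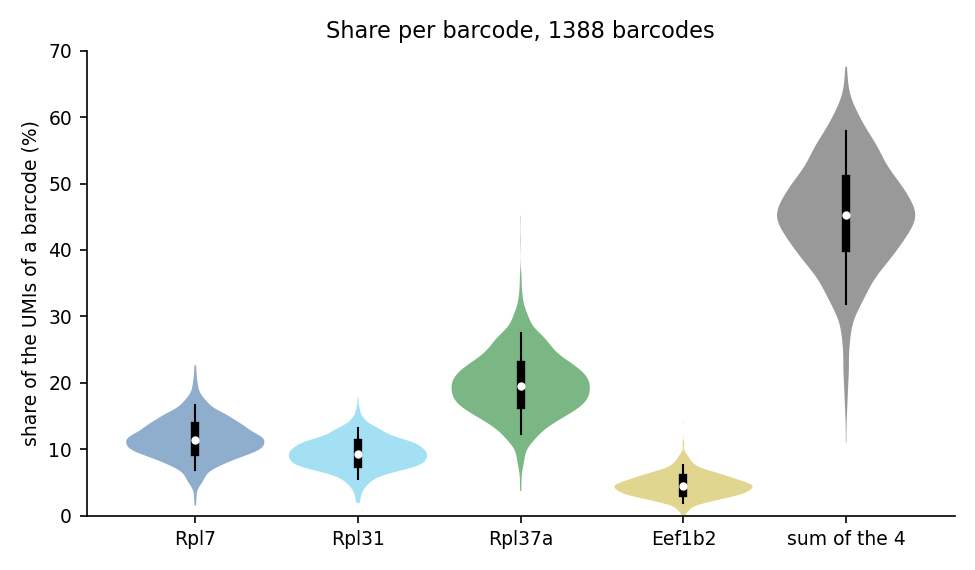
Share of a barcode's UMIs (percent, y axis) taken by each gene and by the 4 together, over 1388 barcodes. The shapes show the distribution, thick bars the middle 50%, thin bars the 5th to 95th percentile and white points the median. Rpl37a (median 19.6%) lies above Rpl7 (11.5%), Rpl31 (9.26%) and Eef1b2 (4.44%), and the sum centres on 45.3%.

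With the counting error removed, barcodes still differed in the share of the 4 genes. The standard deviation of the summed share was 8.11 percentage points as observed and 7.51 points after multinomial counting error had been taken out, so 14.3% of the variance was counting. The same step left 4.08 points for Rpl37a, 2.29 for Rpl7, 1.54 for Rpl31 and 1.14 for Eef1b2. Relative to its mean, Rpl31 varied least, with a coefficient of variation of 16.6%, followed by Rpl7 (19.8%), Rpl37a (20.6%) and Eef1b2 (25.1%). These values were low for the table. The glutathione transferase gene Gsta3 had 117%, Ptma, which encodes prothymosin alpha, 41.4%, and the respiratory chain gene Cox5b 33.8%. Among the 52 genes with 1000 or more UMIs the 4 members took places 3, 6, 9 and 12 from the lowest.

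The 5 barcodes with the lowest summed share had 100 to 188 UMIs, of which the 4 genes supplied 11 to 26. In 1 of them 23 of 109 UMIs belonged to the phosphatase gene Ptpn18, and in another 22 of 132 to Resp18, a gene of secretory granules. The leading other transcript of the remaining 3 was Ptma with 10 of 100 and 16 of 103 UMIs and the actin-nucleation gene Arpc2 with 11 of 188. The 5 barcodes at the other end had 182 to 496 UMIs, of which 123 to 324 came from the 4 genes. There the leading other transcript was Ptma in 3 barcodes, Cox5b in 1 and the mitochondrial chaperonin gene Hspe1 in 1, with 4.03% to 6.54% of the UMIs.

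The summed share changed with depth mainly at the ends. In 10 bins of equal size by total UMIs it was 42.9% (42.1 to 43.6) in the shallowest, at 100 to 150 UMIs. It was 47.4% (46.8 to 48.1) in the next and 41.8% (41.5 to 42.1) in the deepest, at 520 to 1082 UMIs. The bins between held 44.8% to 47.1%. Rpl37a had 20.2% in the shallowest bin and 17.7% in the deepest. Rpl7 and Eef1b2 were at 10.1% and 3.75% in the shallowest bin, below their 12.0% and 4.77% in the next. Comparisons between upper and lower groups were therefore made within these bins. Correlations, which cover all depths, were also computed by band of depth. For marker sets this was done for the sum of the 4 only, and not for single genes.

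**Figure D2:**
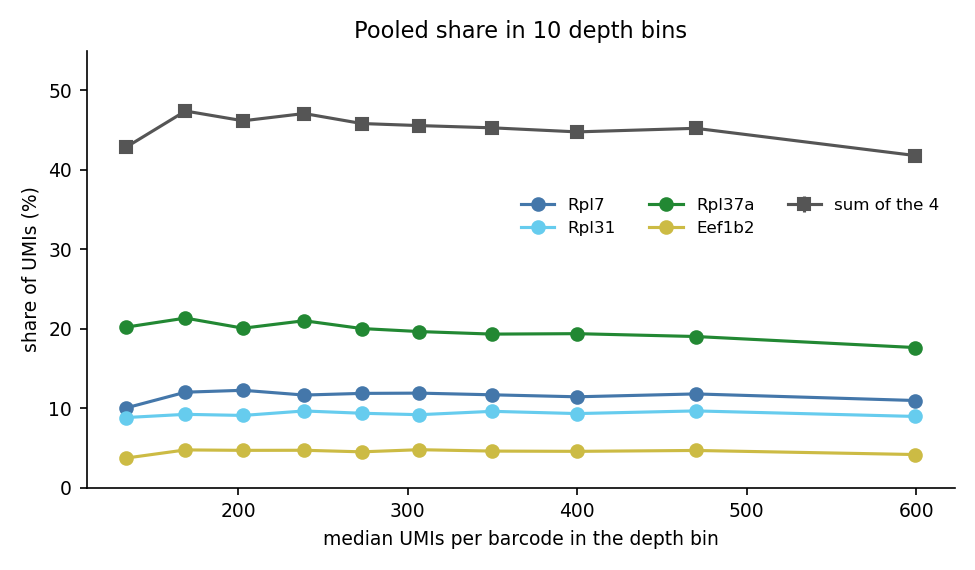
Pooled share of UMIs (percent, y axis) of each gene and of the 4 together in 10 bins of barcodes by total UMIs (x axis, median of the bin). Vertical bars on the sum are exact 95% intervals for counting error, hidden by the symbols. The sum is lowest in the deepest (41.8%) and the shallowest bin (42.9%).

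The shares of the 4 genes went up and down together from barcode to barcode. Since they compete for the same total, counting alone would give negative correlations, from -0.18 to -0.07 over the 6 pairs. The observed Pearson correlations over 1388 barcodes were all positive, from 0.16 to 0.34. With counting error removed they were 0.72 for Rpl31 with Rpl37a, 0.65 for Rpl7 with Eef1b2, 0.64 for Rpl31 with Eef1b2 and 0.62 for Rpl37a with Eef1b2. Rpl7 was less close to the other ribosomal protein genes, at 0.44 with Rpl31 and 0.39 with Rpl37a. In the 330 barcodes of 100 to 200 UMIs the highest value was 0.77, for Rpl7 with Eef1b2. The closest and the loosest pair kept their places among barcodes of 200 to 400 UMIs, at 0.81 for Rpl31 with Rpl37a and 0.41 for Rpl7 with Rpl37a. In the 346 barcodes of 400 or more UMIs the highest value was 0.80, for Rpl37a with Eef1b2. These correlations are descriptions, without a test, of barcodes that share 1 table and 1 set of totals.

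**Figure D3:**
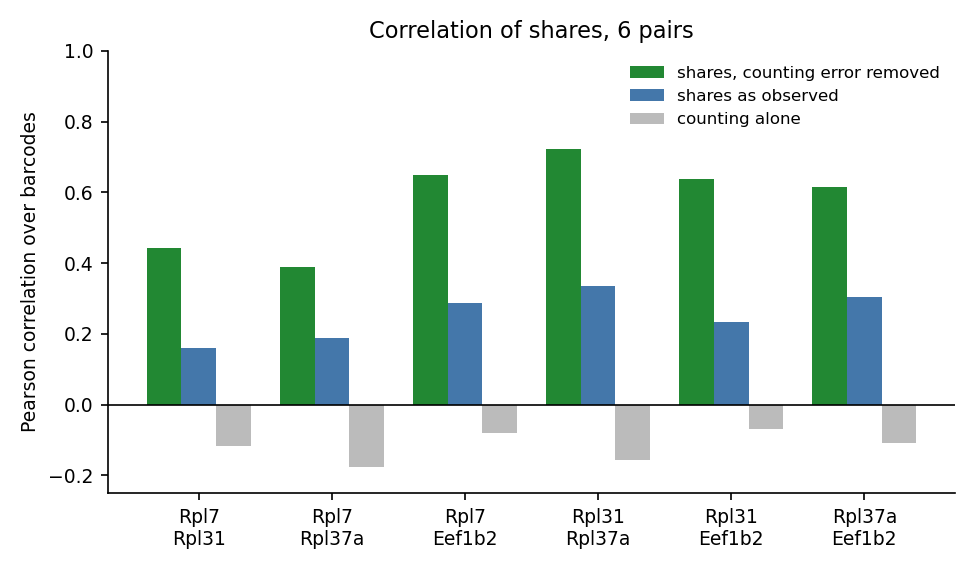
Pearson correlation (y axis) of the shares of each of the 6 gene pairs over 1388 barcodes. Green bars have counting error removed, blue bars are as observed and grey bars are what multinomial counting alone gives. All 6 green bars lie above 0, from 0.39 to 0.72, and all grey bars below.

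Within the 4, the mix was steadier than the sum. Over the 1384 barcodes with 20 or more UMIs of the 4 genes, Rpl37a averaged 43.6% of their UMIs, Rpl7 25.7%, Rpl31 20.7% and Eef1b2 9.99%. With counting error removed the standard deviations of these parts were 3.91, 3.57, 2.14 and 1.42 points. As a coefficient of variation, Rpl37a had 8.96% of its mean and Rpl31 10.3%, against 13.9% for Rpl7 and 14.2% for Eef1b2. Each was below the value of the same gene's share of all UMIs.

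Each gene was higher where the other 3 were high, in a measure from which those 3 were left out. Barcodes were ranked within depth bins by the summed share of the other 3 genes and divided in 4 groups of near-equal size, and the gene's level was taken among the UMIs outside those 3. Over the groups from low to high, Eef1b2 held 5.41%, 7.19%, 8.15% and 10.5% of these UMIs. The ratio of upper to lower group was 1.94 (1.86 to 2.02). Rpl31 held 11.3%, 14.1%, 15.4% and 18.1%, with a ratio of 1.60 (1.56 to 1.65). Rpl7 held 14.1%, 17.1%, 18.1% and 20.9%, with a ratio of 1.48 (1.45 to 1.52), and Rpl37a 21.6%, 24.8%, 27.2% and 31.4%, with a ratio of 1.45 (1.43 to 1.48).

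Eef1b2 and Rpl31 passed 1.5-fold in this comparison, Rpl7 and Rpl37a did not. Of the other genes with 50 or more UMIs, 6.36% passed it upwards in the ranking without Eef1b2 and 7.2% in that without Rpl31. The shares were 7.2% and 3.81% in the rankings without Rpl7 and Rpl37a. Among all 237 genes tested in each ranking, Eef1b2 took place 5 from the highest ratio, Rpl37a 12, Rpl31 15 and Rpl7 18. Among the 49 genes with 1000 or more UMIs Eef1b2 had the highest ratio, Rpl7 and Rpl37a the second and Rpl31 the third. Ahead of Rpl7 was the small nucleolar RNA host gene Snhg6 at 1.60 (1.36 to 1.89). Ahead of Rpl37a was the small GTPase gene Arl4c at 1.85 (1.55 to 2.20), which had the highest ratio beside Rpl31 as well, at 1.98 (1.66 to 2.37). Measured against all UMIs the 4 ratios were smaller, between 1.17 and 1.47, and none fell below 1.

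To see which other genes went with the 4, barcodes were divided in 4 groups of near-equal size by the summed share within depth bins. The upper group had 340 barcodes with a summed share of 54.1% and the lower group 350 barcodes with 35.5%. Their median totals were 285.5 and 287.5 UMIs. From low to high the groups held 14.9%, 18.4%, 20.4% and 24.0% Rpl37a, 9.60%, 11.1%, 12.3% and 13.4% Rpl7, 7.65%, 8.997%, 9.79% and 10.9% Rpl31, and 3.42%, 4.23%, 4.73% and 5.83% Eef1b2. These values follow from the ranking and are no result. At equal depth the remaining transcripts were as varied in each: a median of 31 other genes was seen in each group when the non-member UMIs were thinned to 50 per barcode, which 2 barcodes of the upper group did not reach. Unthinned, the median was 60 in the upper and 75 in the lower group.

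Levels of the other genes were taken as CPM of the UMIs outside the 4, so that no gene falls merely because the 4 fill the total. Of 236 genes with 50 or more UMIs, 31 were higher in the upper group with the whole interval above 1 (13.1%), and 24 were lower (10.2%). Past 1.5-fold there were 21 higher (8.9%) and 20 lower (8.47%). The median ratio over all 236 was 1.01. Counted against all UMIs, every ratio is 0.712 times as large (-0.49 on the log2 scale), and 6 of the 31 then kept an interval above 1. These 6 were Pkhd1, Igfbp5, Gm3940, Gm8420, Pecr and Snhg6. All 24 lower genes kept an interval below 1, which was fixed in advance because this scaling only lowers ratios. Pkhd1 passed the minimum of 50 UMIs only through the upper group.

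A small nucleolar RNA host gene and a pair of ribosomal protein pseudogenes were among those 6. Snhg6, the host of a small nucleolar RNA, stood at 3827, 4178, 5303 and 6934 CPM over the groups from low to high. It had 343 UMIs in the upper and 275 in the lower group, a ratio of 1.81 (1.54 to 2.13). The ratio was above 1 in each depth band, at 1.12 for 100 to 200 UMIs, 1.67 for 200 to 400 and 2.07 for 400 or more. Snhg6 was also the gene most like Eef1b2 among 48 others with 1000 or more UMIs, with a correlation of 0.28 with counting error removed.

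Gm8420 and Gm3940 are annotated as processed pseudogenes, at chr1:51940664-51941261 and chr1:52090635-52091066. The Gm8420 sequence is 96.6% identical to the Rpl15 transcript, and that of Gm3940 is 90.02% identical to Rpl23a. Rpl15 and Rpl23a encode other proteins of the large subunit. Gm8420 stood at 821, 836, 1209 and 1718 CPM over the groups, a ratio of 2.09 (1.48 to 2.97). Gm3940 stood at 487, 662, 553 and 1071 CPM, a ratio of 2.20 (1.41 to 3.47). Both were higher in the upper group in all 3 depth bands, with 85 and 53 UMIs in that group. Whether their UMIs were read from the pseudogenes or from their parent genes was not tested.

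Of the remaining higher genes, Pecr, a peroxisomal reductase gene of fatty acid elongation, had 2143 CPM in the upper and 1085 CPM in the lower group, a ratio of 1.97 (1.46 to 2.68). Pkhd1, which encodes the cilium protein fibrocystin, had 566 and 167 CPM in the upper and lower groups and the largest ratio of those named, 3.39 (1.67 to 7.32), from 28 and 12 UMIs. With 75 UMIs in all Pkhd1 passed the minimum of 50 only through the upper group, so its ratio was favoured by that minimum. Igfbp5, a binding protein of insulin-like growth factors, had a ratio of 2.66 (1.58 to 4.58). The Igfbp5 ratio moved to 4.71 in barcodes of 200 or more UMIs, to 1.49 with Rpl37a left out of the ranking and to 1.31 with bins by non-member UMIs. Without Rpl37a in the ranking, Pkhd1 had 1.77.

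The F-box gene Fbxo36 (2.29, 1.249 to 4.31; 1.40 with bins by non-member UMIs), the granule gene Ptprn (1.89, 1.06 to 3.42), the centrosome gene Cspp1 (1.84, 1.28 to 2.64) and the insulin receptor substrate gene Irs1 (1.78, 1.08 to 2.96) completed the 10 highest. Their lower bounds lie close to 1 or their UMIs are few: Ptprn had 30 in the upper and 23 in the lower group, and 25.7% of all its UMIs were in 3 barcodes. In the 3 depth bands 9 of the 10 were higher throughout, and Ptprn was not, with 0 UMIs in the upper group at 100 to 200.

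Among the 10 lowest genes Gsta3 and Tuba4a were the most abundant. Gsta3 stood at 30946, 25350, 22318 and 17869 CPM over the groups from low to high, a ratio of upper to lower of 0.577 (0.534 to 0.625). Tuba4a, an alpha-tubulin gene, stood at 12690, 9081, 8844 and 6630 CPM, a ratio of 0.522 (0.459 to 0.593). Both stood lower at every step, and in each depth band the ratio was between 0.515 and 0.668. Coq10b, of coenzyme Q handling, had a ratio of 0.614 (0.472 to 0.792), and the glycosyltransferase gene B3gnt7 0.484 (0.237 to 0.927), which became 0.523 (0.255 to 1.01) without its 3 richest barcodes. With 77 UMIs in all B3gnt7 passed the minimum of 50 only through the lower group, so its difference was favoured by that minimum. Of the 10 lowest genes, 7 were lower in all 3 depth bands, and Coq10b stood at 1.04 in the deepest. Igfbp2 stood at 1.42 at 200 to 400 UMIs, and Resp18 had no UMI of either group in the deepest band.

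Of 5 genes listed as tuft-like, 4 had an interval below 1 and 0 above, beside 10.2% below and 13.1% above over all genes. The other, the kinase gene Sgk3, was at 1.02 (0.475 to 2.12). Inpp5d, a lipid phosphatase gene also known from blood cells, had 4 UMIs in the upper and 39 in the lower group, a ratio of 0.149 (0.0387 to 0.413). With 51 UMIs in all it passed the minimum of 50 only through the lower group, so its difference was favoured by that minimum and is no support for the list. Ptpn18 had 3396 CPM in the upper and 5329 CPM in the lower group, a ratio of 0.637 (0.528 to 0.766). Ogfrl1 was at 0.396 (0.208 to 0.711), and Fam117b at 0.672 (0.510 to 0.880). These genes were put in a list with earlier results of these data known.

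The values of Alpi, Resp18 and Igfbp2 rested on few barcodes. Alpi, the intestinal alkaline phosphatase gene, had 18 UMIs in the upper and 98 in the lower group, a ratio of 0.267 (0.152 to 0.444). Without the 3 barcodes richest in it the ratio was 0.812 (0.429 to 1.49), an interval that spans 1. Resp18 had 0 UMIs in the upper and 67 in the lower group, at least 15.4-fold lower when 3 counts are allowed for the upper group, and 81.1% of its UMIs were in 3 barcodes. That floor leaves out the counting error of the lower group, and the exact interval of the ratio ran from 0 to 0.0822. Resp18, with 74 UMIs in all, also passed the minimum of 50 only through the lower group. Without its 3 richest barcodes the upper bound of the Resp18 ratio was 1.003. Igfbp2, with 2 and 18 UMIs in the upper and lower groups, had a ratio of 0.161 (0.0182 to 0.674) and 0.242 (0.0263 to 1.09) without its 3 richest barcodes. With 59 UMIs in all Igfbp2 too passed the minimum only through the lower group. The differences of Resp18 and Igfbp2 were favoured by that minimum. The lower group held 71866 UMIs outside the 4 and the upper 49470, so equal levels would give the lower group larger raw sums. The summed UMIs of the 2 tuft markers were 172 in the upper and 422 in the lower group, and those of the 2 enterocyte markers 303 and 614. The 2 endocrine markers had 30 and 90, with Resp18 at 0 and 67 and Ptprn the other way at 30 and 23. The 6 T cell markers had 91 and 126, mostly of Il18r1 (79 and 120, a ratio of 0.956, 0.711 to 1.28). The 3 fibroblast markers had 10 and 12 and the 2 smooth muscle markers 4 and 8. Ratios of these sums were not computed. The part of these markers in the other differences was not tested.

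**Figure D4:**
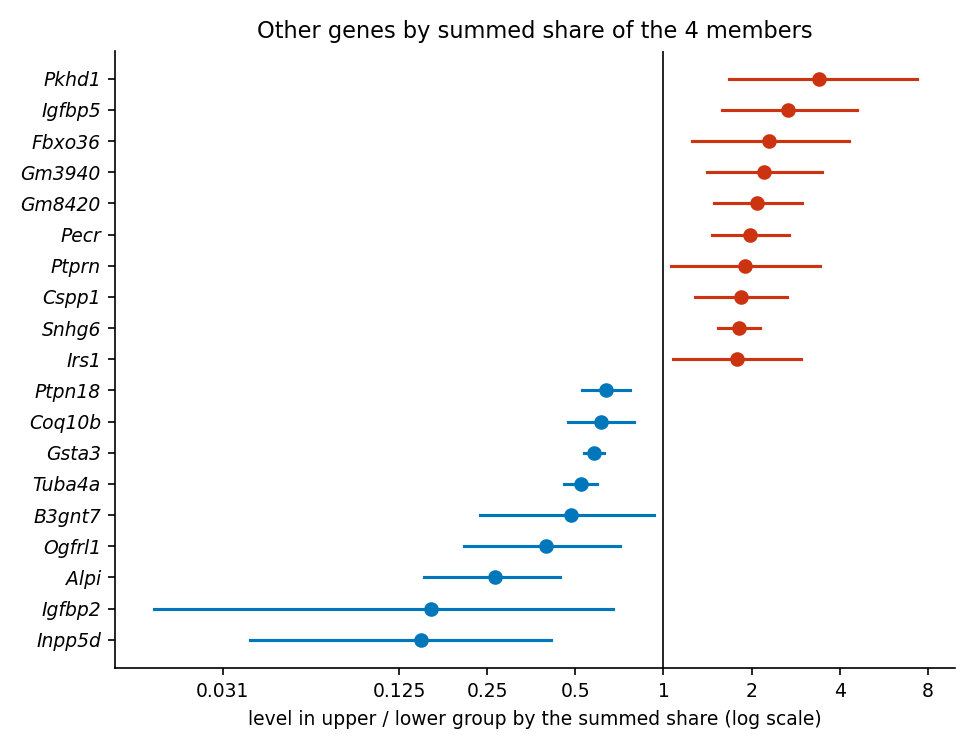
Ratio of the level in the upper to that in the lower group of the summed share (x axis, log scale) for the 10 highest genes (red) and 9 of the 10 lowest (blue), as CPM of the UMIs outside the 4 members. Bars are exact 95% intervals for counting error. Resp18, with 0 UMIs in the upper group, is not drawn. Snhg6 (1.81), Gsta3 (0.577) and Tuba4a (0.522) have the narrowest intervals on this axis.

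Other genes of translation and of ribosome assembly lay on both sides of 1. Of 6 measured translation factors and tRNA synthetases, 2 had an interval above 1 and 1 below, beside 13.1% above and 10.2% below over all 236 genes. Gigyf2, a partner of the cap-binding protein 4EHP, stood at 1.43 (1.09 to 1.88) and Eif4e2, which encodes 4EHP, at 1.12 (1.00 to 1.26), whereas Bzw1, a regulator of start codon choice, was at 0.827 (0.712 to 0.959). Eif5b, the factor that joins ribosomal subunits, was at 0.907 (0.816 to 1.01), and the synthetase gene Farsb at 0.977 (0.822 to 1.16). Counted against all UMIs, Eif4e2 turned to 0.8004 and Gigyf2 had 1.02 (0.772 to 1.33). The median ratio of the list was 1.05.

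Of 9 ribosome biogenesis genes, 1 had an interval above 1 and 1 below, near the same 13.1% and 10.2%, and the median was 1.16. The nucleolar protein gene Ncl was at 1.17 (1.09 to 1.26), and at 0.836 against all UMIs. Nop58, of the box C/D small nucleolar particle, was at 0.720 (0.599 to 0.864). Rrs1 (1.22, 0.949 to 1.56), Wdr75 (1.23, 0.878 to 1.70) and Imp4 (0.859, 0.670 to 1.10) had intervals that span 1. Of 4 mitochondrial ribosome genes, Mrpl30 was higher at 1.30 (1.19 to 1.42), and at 0.925 against all UMIs, while Mrpl15 was lower at 0.842 (0.725 to 0.977). Mrpl30 was the gene most like Rpl31, with a correlation of 0.54 with counting error removed, though its own share varied little (coefficient of variation 14.1%).

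Abundant genes of mitochondria moved unequally. Hspe1 stood at 41897, 49329, 50370 and 56176 CPM over the groups from low to high, a ratio of 1.34 (1.27 to 1.41), while its chaperonin partner Hspd1 was at 1.01 (0.924 to 1.10). Cox5b was at 1.15 (1.11 to 1.201) and Ndufb3, of complex I, at 1.04 (0.955 to 1.13). Against all UMIs Hspe1 was at 0.954 (0.906 to 1.01) and Cox5b at 0.822. Ptma, the most abundant transcript outside the 4, was at 0.899 (0.874 to 0.925). Its correlation with the members, with counting error removed, was -0.16 for Rpl7, -0.25 for Rpl31, -0.29 for Eef1b2 and -0.45 for Rpl37a. Ptma and the members compete for the same total, so negative values are favoured by this measure.

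The counts of the other lists are likewise to be read beside 13.1% above and 10.2% below over all genes, and each list is short. Of these, 2 of 7 genes of protein breakdown were lower, the proteasome subunit gene Psmd1 (0.707, 0.600 to 0.832) and the signalosome subunit gene Cops5 (0.825, 0.699 to 0.971), and 1 was higher, the ubiquitin-conjugating gene Ube2w (1.31, 1.01 to 1.71; 0.935 against all UMIs). Of 6 nuclear and RNA processing genes, Ptma and the splicing factor gene Sf3b1 (0.825, 0.718 to 0.947) were lower and 0 higher. Of 10 absorptive and metabolic genes, 3 were lower, Gsta3, Alpi and the microvillus gene Vil1 (0.802, 0.692 to 0.929). In that list 2 were higher, Pecr and the retinol dehydrogenase gene Rdh10 (1.29, 1.18 to 1.41; 0.917 against all UMIs), the neighbour of Rpl7 on the chromosome. Of 5 cycling genes 0 had an interval off 1, with the helicase gene Mcm3 at 0.941 (0.683 to 1.29). Of 4 endocrine genes 2 were higher, Igfbp5 and Ptprn, and 2 lower, Resp18 and Igfbp2. These last 2 passed the minimum of UMIs only through the lower group.

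Nearest in pattern to Rpl7 among the 48 other genes with 1000 or more UMIs were Arl4c (0.25), Rdh10 (0.15) and Snhg6 (0.15), by the correlation of shares with counting error removed. For genes whose own share varies little this value is unreliable and can leave the possible range: Rpl31 with Bzw1 gave -1.05 and Eef1b2 with Stk16 gave -1.02. For Rpl31 they were Mrpl30 (0.54), Hspe1 (0.23) and Cox5b (0.13). For Eef1b2 they were Snhg6 (0.28), Arl4c (0.09) and Farsb (0.06). Rpl37a had no other gene above 0.13, the value of Pnkd, and its next were Ncl (-0.03) and Arl4c (-0.05). Every pair among the 4 members exceeded these values except the pairs of Rpl7 with Rpl31 (0.44) and Rpl37a (0.39), which lay below the value of Rpl31 with Mrpl30. All are shares of 1 total, of which the 4 held 44.8%. The other genes together must lose share where the 4 gain it, and removing counting error does not undo this. Lower values for other genes are therefore partly built into the measure, by an amount that was not tested.

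The part of Rpl7 within the 4 was followed as well, because Rpl7 was the loosest member; this comparison was added after the values above had been seen. Barcodes were grouped within depth bins by Rpl7 as a share of the UMIs of the 4. It was 32.3% in the 340 barcodes of the upper and 19.7% in the 350 of the lower group, and the summed share was 43.3% and 46.2%. Of the 236 other genes, 28 had an interval above 1 (11.9%) and 37 below (15.7%). Arl4c was higher, with 440 UMIs in the upper and 144 in the lower group (ratio 2.95, 2.44 to 3.59), as were the chemokine gene Ccl20 (1.79, 1.33 to 2.44), Gsta3 (1.52, 1.41 to 1.63) and Rdh10 (1.503, 1.37 to 1.65). Of all Ccl20 UMIs 21.25% were in 3 barcodes. The absorptive and metabolic list, which holds Gsta3 and Rdh10, went both ways. Idh1 was higher (1.27, 1.16 to 1.40). Alpi (0.332, 0.218 to 0.494), Vil1 (0.817, 0.712 to 0.937) and Acsl3 (0.777, 0.623 to 0.967) were lower.

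Lower where Rpl7 was a large part of the 4 were 4 of the 5 cycling genes, Bard1 (0.254, 0.0742 to 0.704), Prim2 (0.495, 0.274 to 0.870), Hjurp (0.552, 0.385 to 0.784) and Mcm3 (0.615, 0.444 to 0.848). Over all 236 other genes, 15.7% had an interval below 1 in this comparison. The tuft-like genes Inpp5d (0.0805, 0.00922 to 0.324) and Ptpn18 (0.517, 0.422 to 0.631) were lower too. Bard1 and Inpp5d, with 51 UMIs each, passed the minimum of 50 only through the lower group. Their differences were favoured by that minimum and are no support for their lists. Mitochondrial genes lay on both sides: Cox5b (0.818, 0.787 to 0.851), Ndufb3 (0.847, 0.778 to 0.921), Hspe1 (0.874, 0.830 to 0.920) and Mrpl30 (0.878, 0.804 to 0.959) were lower, while Mff (1.27, 1.09 to 1.48) and Coq10b (1.30, 1.02 to 1.68) were higher. Igfbp5, which was higher with the summed share, was at 0.347 (0.206 to 0.567) here, and Gsta3, which was lower with the summed share, was higher here.

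The members were also set against transcripts that mark particular cells, as a share of the UMIs outside those markers. At equal depth a barcode with a lower summed share has more UMIs of other genes and reaches a marker minimum more easily. A ratio somewhat below 1 is therefore favoured by the way the barcodes were picked, by an amount that was not tested. In the 173 barcodes with 2 or more UMIs of the replication and centromere genes Mcm3, Prim2, Sgol2, Hjurp and Bard1 the 4 genes held 42.5%, against 45.4% in the others, a ratio of 0.935 (0.925 to 0.946). These barcodes were deeper, with a median of 460 against 274 UMIs. Within depth bands the ratio was 0.973 (0.901 to 1.05) at 100 to 200 UMIs, 0.944 (0.922 to 0.966) at 200 to 400 and 0.953 (0.938 to 0.967) at 400 or more. Over all depths Rpl7 differed most, with 10.6% against 11.8% (0.897, 0.876 to 0.918).

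Barcodes rich in Gsta3 had a lower summed share. In 182 barcodes with 10 or more Gsta3 UMIs it was 41.9%, against 46.2% in the others, a ratio of 0.908 (0.897 to 0.918). It was 0.912 (0.894 to 0.931) and 0.918 (0.904 to 0.933) in the deeper bands, and 0.959 (0.837 to 1.09) in the 3 such barcodes of 100 to 200 UMIs. With a minimum of 5 Gsta3 UMIs it was 0.928 (0.920 to 0.937). Over all depths the 4 genes shared this unequally: Eef1b2 was at 0.843 (0.811 to 0.876) and Rpl37a at 0.865 (0.849 to 0.881), while Rpl7 was at 0.980 (0.957 to 1.00). Barcodes with 10 or more Gsta3 UMIs were deeper, with a median of 407.5 against 274.5 UMIs. So were those with Alpi (501 against 283) and Vil1 (368 against 259.5). Ratios of single genes in all marker sets cover all depths, and the part of depth in them was not tested. In 182 barcodes with 2 or more UMIs of Ptpn18, Inpp5d and Sgk3 together the summed share was 43.0% against 45.3%, and all 4 genes lay between 0.940 and 0.957 of their share in the others. In 442 barcodes with 2 or more Vil1 UMIs it was 43.3% against 46.1% (0.940, 0.931 to 0.949), with Rpl31 at 0.992 (0.972 to 1.01). In the 29 barcodes with 2 or more Alpi UMIs it was 41.7% against 44.9% (0.928, 0.904 to 0.953), and 1.02 (0.969 to 1.07) in the 10 of them with 200 to 400 UMIs.

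Barcodes with Arl4c divided the 4 genes. In the 213 barcodes with 2 or more Arl4c UMIs Rpl7 held 12.9%, against 11.3% in the others (1.13, 1.11 to 1.16), and Eef1b2 4.85%, against 4.49% (1.08, 1.04 to 1.12). Rpl31 held 8.97%, against 9.42% (0.952, 0.927 to 0.978), and Rpl37a 18.8%, against 19.5% (0.964, 0.947 to 0.982). The sum was 45.5%, against 44.8%, a ratio of 1.02 (1.00 to 1.03). In the 69 barcodes with 2 or more UMIs of Ccl20 the summed ratio was 1.01 (0.991 to 1.03), and in the 110 with 2 or more of the fibronectin gene Fn1 it was 0.993 (0.977 to 1.01). These intervals leave room for differences of up to 3.16% and 2.26% of the share.

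**Figure D5:**
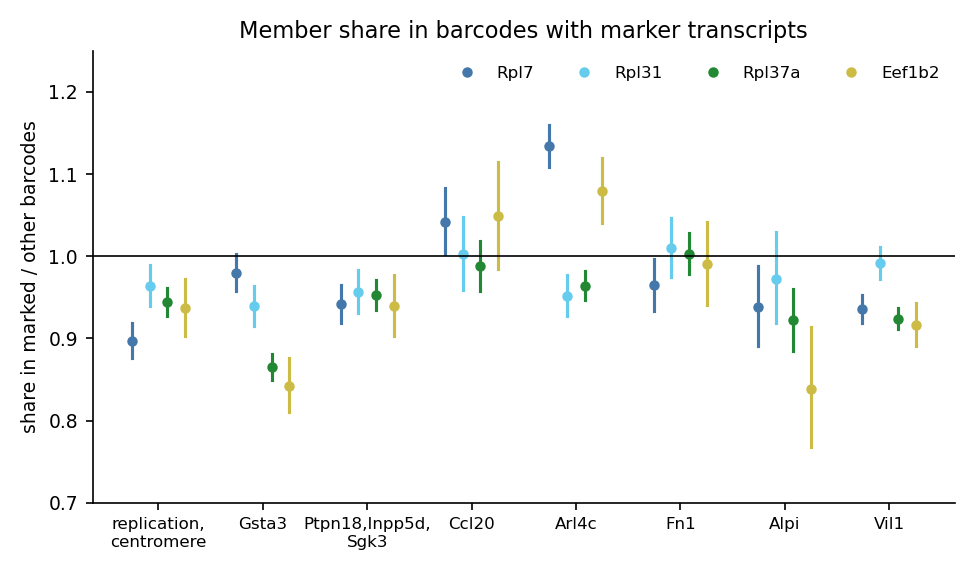
Share of each of the 4 genes in barcodes with marker transcripts over their share in all other barcodes (y axis, the line marks 1), for 8 marker sets (x axis). Bars are exact 95% intervals for counting error. Rpl7 (1.13) and Eef1b2 (1.08) lie above 1 in barcodes with Arl4c, where Rpl31 (0.952) and Rpl37a (0.964) lie below, and Eef1b2 (0.843) and Rpl37a (0.865) are the lowest of the 4 in barcodes rich in Gsta3. Eef1b2 is at 0.838 in barcodes with Alpi. All ratios drawn cover all depths, and the marked barcodes differ in depth from the others.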

How the data were processed

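Gene counts (UMIs per gene and barcode) were used as deposited. Cell Ranger, Seurat 2.3.0 and the build mm10 are named in the submitters' processing notes, with no word on how barcodes were filtered. The labels list 8 samples of 1 genotype, but barcodes carry no sample name, so all formed 1 pooled sample, with no p-value and no replicate error. No value column was left unused (0), and 1 incomplete row, with 928 values for 1460 barcodes, was left out. Barcodes with 100 or more UMIs were kept (1388 of 1460, 100 to 1082 UMIs each), with no doublet call. Doublets and free RNA were not removed.

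Shares have exact Clopper-Pearson 95% intervals and ratios exact conditional binomial ones. Since PCR and droplets add error of their own, they cover counting error only. Spread and correlation had multinomial counting variance removed, with barcodes weighted equally. Groups were 4 ranks within 10 bins of total UMIs, for genes with 50 or more UMIs. The text names the 4 members, the 10 highest and 10 lowest ratios with an interval on 1 side of 1, listed genes and the 3 genes most like each member. Further genes in the comparison of Rpl7 within the 4 and at the extremes were chosen after their values were seen. The members and lists were chosen with earlier results of these data known. Annotation was GENCODE vM21, and of the 779 genes 711 matched on chromosome 1. RefSeq promoter windows matched 3 of the 4 members. The steps were tested on simulated data. Python 3.11.15, numpy 2.4.6, scipy 1.17.1, matplotlib 3.10.9 and blastn 2.17.0 were used.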

Additional observations from a re-analysis of the deposited data

Results flagged for a closer look

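The 72 barcodes left out for having under 100 UMIs, which no comparison used, also carried the 4 transcripts. The 4 genes held 36.8% (35.5 to 38.2) of their 5043 UMIs, against 44.8% in the barcodes kept. A count of 0 would allow 0.0595%, a limit that transcripts this abundant could not fail to pass, so passing it says nothing about these barcodes. Rpl37a was at 19.4% in both. Rpl7 held 6.94% in the barcodes left out and 11.6% in those kept, Rpl31 7.57% and 9.33%, and Eef1b2 2.91% and 4.54%.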

How the results depend on the processing

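No paired analysis was possible because all samples belong to 1 group and the barcodes carry no sample. Of 292 values recomputed under alternatives, 238 stayed within their interval or within 1.5 times the count, 54 moved and 0 changed direction. Among genes these cover only the 10 highest and 10 lowest ratios, whose 180 recomputed values stayed on their side of 1. These genes were picked for extreme ratios in the same data, so staying on 1 side was favoured by the choice. Against all UMIs, 12 of the 31 genes with an interval above 1 had a ratio below 1, among them Eif4e2, Ncl, Mrpl30, Hspe1, Cox5b, Ube2w and Rdh10. The cause of the moves was not tested, apart from those that change the total or the threshold. Averaged over single barcodes, the share was 19.8% for Rpl37a and 45.2% for the sum. With a minimum of 200 UMIs Rpl37a had 19.2%, the SD of the sum was 7.13 points, and the correlations were 0.604 for Rpl7 with Eef1b2, 0.779 for Rpl31 with Rpl37a and 0.651 for Rpl37a with Eef1b2. Weighted by depth, that SD was 6.89 points and the last pair 0.696. Thinned to 100 UMIs, the correlations were 0.333 for Rpl7 with Rpl37a, 0.528 for Rpl7 with Eef1b2, 0.825 for Rpl31 with Rpl37a, 0.786 for Rpl31 with Eef1b2 and 0.563 for Rpl37a with Eef1b2. Outside Ptma they were 0.337 for Rpl7 with Rpl37a, 0.680 for Rpl31 with Rpl37a and 0.599 for Rpl31 with Eef1b2.

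Against all UMIs, 5 genes were 1.5-fold higher and 80 lower with the summed share, and 6 had an interval above 1 and 130 below, beside 21, 20, 31 and 24. With bins by non-member UMIs, an alternative added after seeing the data, 13 were higher and 18 had an interval above 1. With no minimum per gene 66 were higher and 88 lower, and at 1.2-fold 56 and 48. Against all UMIs the members' ratios with the other 3 were 1.17 (Rpl7), 1.254 (Rpl31), 1.2499 (Rpl37a) and 1.47 (Eef1b2), and Rpl37a had 1.499 with no depth bins and 1.42 with bins outside the other 3, likewise added. Beside those in the report, ratios that moved by over 1.5 times were 1.72 for Igfbp5, 0.259 for Igfbp2 and 0.605 for Ogfrl1 with 3 groups in place of 4, 2.90 for Ptprn with a minimum of 200 UMIs, 0.0624 for Inpp5d without Rpl37a in the ranking, 0.146 for Alpi with no depth bins and 0.0861 for Igfbp2 with bins by non-member UMIs. A lower marker minimum gave summed ratios of 0.955 (cycling), 0.928 (Gsta3) and 0.973 (tuft-like). Low depth limits genes under 50 UMIs and single barcodes most.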
